A study of Mus musculus with 30 samples.

Results

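The 10 genes described here belong to the ATF4 stress response and were followed across 30 libraries of C2C12 myotubes, the multinucleated muscle cells that the mouse myoblast line C2C12 forms on differentiation. The genes were taken by symbol from the table of expected counts: the transcription factors Atf4, Atf3, Atf5, Ddit3 and Cebpb, the regulators Trib3, Ddit4 and Sesn2, the enzyme Chac1 and the secreted factor Gdf15. All 10 had a row among the 16025 rows of the table, and all 10 were among the 12184 genes that passed the filter on low counts. The 10 groups held 3 libraries each, all of wild-type cells of this 1 established line. Vehicle (Control) was set beside D-galactose at 20 mg/mL for 24 h (Dgal), a sugar that is given in the laboratory to model ageing. Korean Red Ginseng water extract (RGW), its saponin fraction (SFr) and its non-saponin fraction (NSFr) were each given at 100 ug/mL, and the purified saponin ginsenoside Rb2 at 20 uM, each for 12 h. In the remaining groups (RGW_Dgal, SFr_Dgal, NSFr_Dgal and Rb2_Dgal) the same preparations came 12 h ahead of the 24 h with D-galactose. The labels do not give the time in vehicle, and the labelled times differ between D-galactose alone, the preparations alone and the combinations. In every comparison with vehicle, of a combination with D-galactose or with the preparation alone, and in the interactions below, treatment and time cannot be told apart; the labelled times match only where the saponin and non-saponin fractions are set against each other.

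ATF4 is the main transcription factor of the integrated stress response. Kinases that sense amino acid shortage, misfolded protein in the endoplasmic reticulum, haem shortage or double-stranded RNA phosphorylate the translation factor eIF2. General protein synthesis then slows, while translation of the Atf4 mRNA, which carries short upstream reading frames, increases. ATF4 protein switches on genes of amino acid synthesis and transport together with other regulators, among them Atf3, Ddit3 (CHOP) and Trib3. In skeletal muscle the pathway is known for its part in atrophy and in mitochondrial stress, when muscle fibres release GDF15. The libraries report mRNA, and the level of ATF4 protein was not measured.

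Library totals ranged from 22209306 to 30218420 expected counts. The 9 myotube markers measured summed to between 14900 and 22000 CPM (each library's counts scaled to a common total), while the 4 fat cell markers summed to at most 0.0744 CPM, the 4 bone cell markers to at most 1 CPM and the 4 endothelial markers to at most 1.32 CPM. The 3 macrophage markers summed to 1.03 to 1.31 CPM in Control, 1.9 to 2.91 CPM in Dgal, 3.68 to 3.96 CPM in SFr and 6.22 to 6.73 CPM in SFr_Dgal. Most of that sum was the lysosomal gene Cd68, while Csf1r reached at most 0.855 CPM and Ptprc, the pan-leukocyte marker, at most 0.0421 CPM. The lowest myotube sums were in SFr (14900 to 15600 CPM) and SFr_Dgal (17100 to 18200 CPM), against 19500 CPM or more in every other library. The 7 myoblast markers summed to 182 to 190 CPM in Control, 142 to 146 CPM in Dgal and 126 to 129 CPM in SFr_Dgal. Mitochondrial genes took 0.727% to 1.14% of counts in the Control libraries and 1.32% to 1.68% in Dgal, with group means from 0.858% in Rb2 to 1.55% in RGW_Dgal. In bulk RNA, fewer cells of a type and less RNA per cell cannot be told apart. The series' design text calls the libraries biological replicates, and the labels name no separate cultures beyond that. Comparisons used edgeR's quasi-likelihood test, with p-values adjusted by Benjamini and Hochberg's method over all 12184 genes and calls made below 0.05. Errors of log2 fold changes are standard errors, and those of CPM are SDs with n = 3.

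Atf4 was the most abundant of the 10 genes per length. Its median over the libraries was 133 CPM per kb of merged exon, followed by Atf5, a related leucine zipper factor, at 41.6 CPM per kb. Chac1, which breaks down glutathione, had 23.3 CPM per kb and Ddit4 (REDD1), an inhibitor of mTORC1, had 19.6 CPM per kb. Ddit3 and Cebpb both stood at 11.6 CPM per kb, Trib3 at 9.86 and Sesn2 at 7.06. Gdf15, with 4.67 CPM per kb, and Atf3, with 3.84 CPM per kb, were the lowest. In an F-test of any difference among the 10 groups, all 10 genes were called, beside 72.9% of all genes tested. The adjusted p from edgeR ran from 3.69e-18 for Atf3 to 0.0246 for Cebpb, and the Cebpb call was lost without SFr_Dgal library 3 (adjusted p = 0.0908).

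The genes lie on 7 chromosomes of GRCm38, by the GENCODE vM21 annotation. Atf4 (chr15:80255184-80257541, plus strand) and Cebpb (chr2:167688915-167690418, plus strand) each form a single merged exon. Trib3 (chr2:152337422-152344032, minus strand) and Chac1 (chr2:119351229-119354381, plus strand) share chromosome 2 with Cebpb. Ddit3 (chr10:127290774-127296288, plus strand) and Ddit4 (chr10:59949669-59951834, minus strand) share chromosome 10. Atf3 spans chr1:191170296-191218039 and Atf5 chr7:44812256-44816658, both on the minus strand. Sesn2 spans chr4:132492032-132510501 and Gdf15 chr8:70629393-70632456, also on the minus strand.

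The promoters of all 10 genes were available from RefSeq (GRCm38.p6), 12 promoters in all, and the 250 bases before each start were searched on both strands. ATF4 binds DNA together with C/EBP partners at a composite element, searched as TGATGNAA. It was found in the promoters of Atf3 and Chac1, and in 3.45% of the 32851 RefSeq promoters. The pieces around these matches are shown. Levels of Atf3 and Chac1 moved in opposite directions in several comparisons below, as did those of Atf3 and Sesn2. With the water extract alone and the non-saponin fraction alone, Atf3, Chac1 and Sesn2 all fell. Capitals mark the element, which reads in reverse on the strand of the gene.

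Atf3, chr1:191183390-191183489, minus strand: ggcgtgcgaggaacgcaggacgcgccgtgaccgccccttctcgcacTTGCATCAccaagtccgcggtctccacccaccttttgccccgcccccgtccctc
Chac1, chr2:119351003-119351102, plus strand: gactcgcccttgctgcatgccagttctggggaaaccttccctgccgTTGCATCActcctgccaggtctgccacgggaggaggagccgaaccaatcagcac

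Both promoters hold the same 8 bases, TTGCATCA, between 110 and 103 bases before the RefSeq start in Atf3 and between 193 and 186 bases before it in Chac1. Neither piece overlaps an annotated exon; the Atf3 piece lies within the span of the Atf3 gene. The cyclic AMP response element TGACGTCA was in none of the 12 promoters (1.55% of all promoters). The AP-1 element TGANTCA was in that of Ddit3, 242 to 236 bases before the start (6.75% of all promoters). No matches overlapped. A match describes letters and not binding.

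D-galactose alone moved 3 of the 10 genes: Atf3 rose, and Atf5 and Chac1 fell. In this comparison 25.1% of all genes were called, so that 3 of 10 stood near the share over all genes. Atf3, an immediate stress factor of the ATF family, measured 7.38, 7.51 and 7.65 CPM in the Control libraries and 9.96, 9.91 and 10.5 CPM in the Dgal libraries. The groups did not overlap, and the log2 fold change was 0.43 ± 0.098 (adjusted p from edgeR = 0.00128). Atf5 measured 95.5, 102 and 87.8 CPM in Control and 75.4, 70.5 and 70.1 CPM in Dgal. Every Dgal library stood below every Control library, a fall of 24.4% (log2 fold change -0.40 ± 0.051, adjusted p from edgeR = 3.58e-07). Chac1 fell from 51.5, 53.7 and 54.9 CPM to 43.1, 36.7 and 39.8 CPM, again with no overlap (-0.42 ± 0.10, adjusted p from edgeR = 0.00336). Atf4 itself was at 350 ± 16.4 CPM in Control and 328 ± 22.9 CPM in Dgal, and the groups overlapped (-0.09 ± 0.047). Ddit3, Trib3, Sesn2, Cebpb and Gdf15 also overlapped between the groups. The mitochondrial share and the macrophage marker sum were both higher in every Dgal library than in every Control library; their part in these changes was not tested. Ddit4 was lower in all 3 Dgal libraries (29.5 to 34.3 CPM, against 34.3 to 35.7 CPM, so that the groups nearly touched) without passing the threshold (adjusted p = 0.0878).

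**Figure D1:**
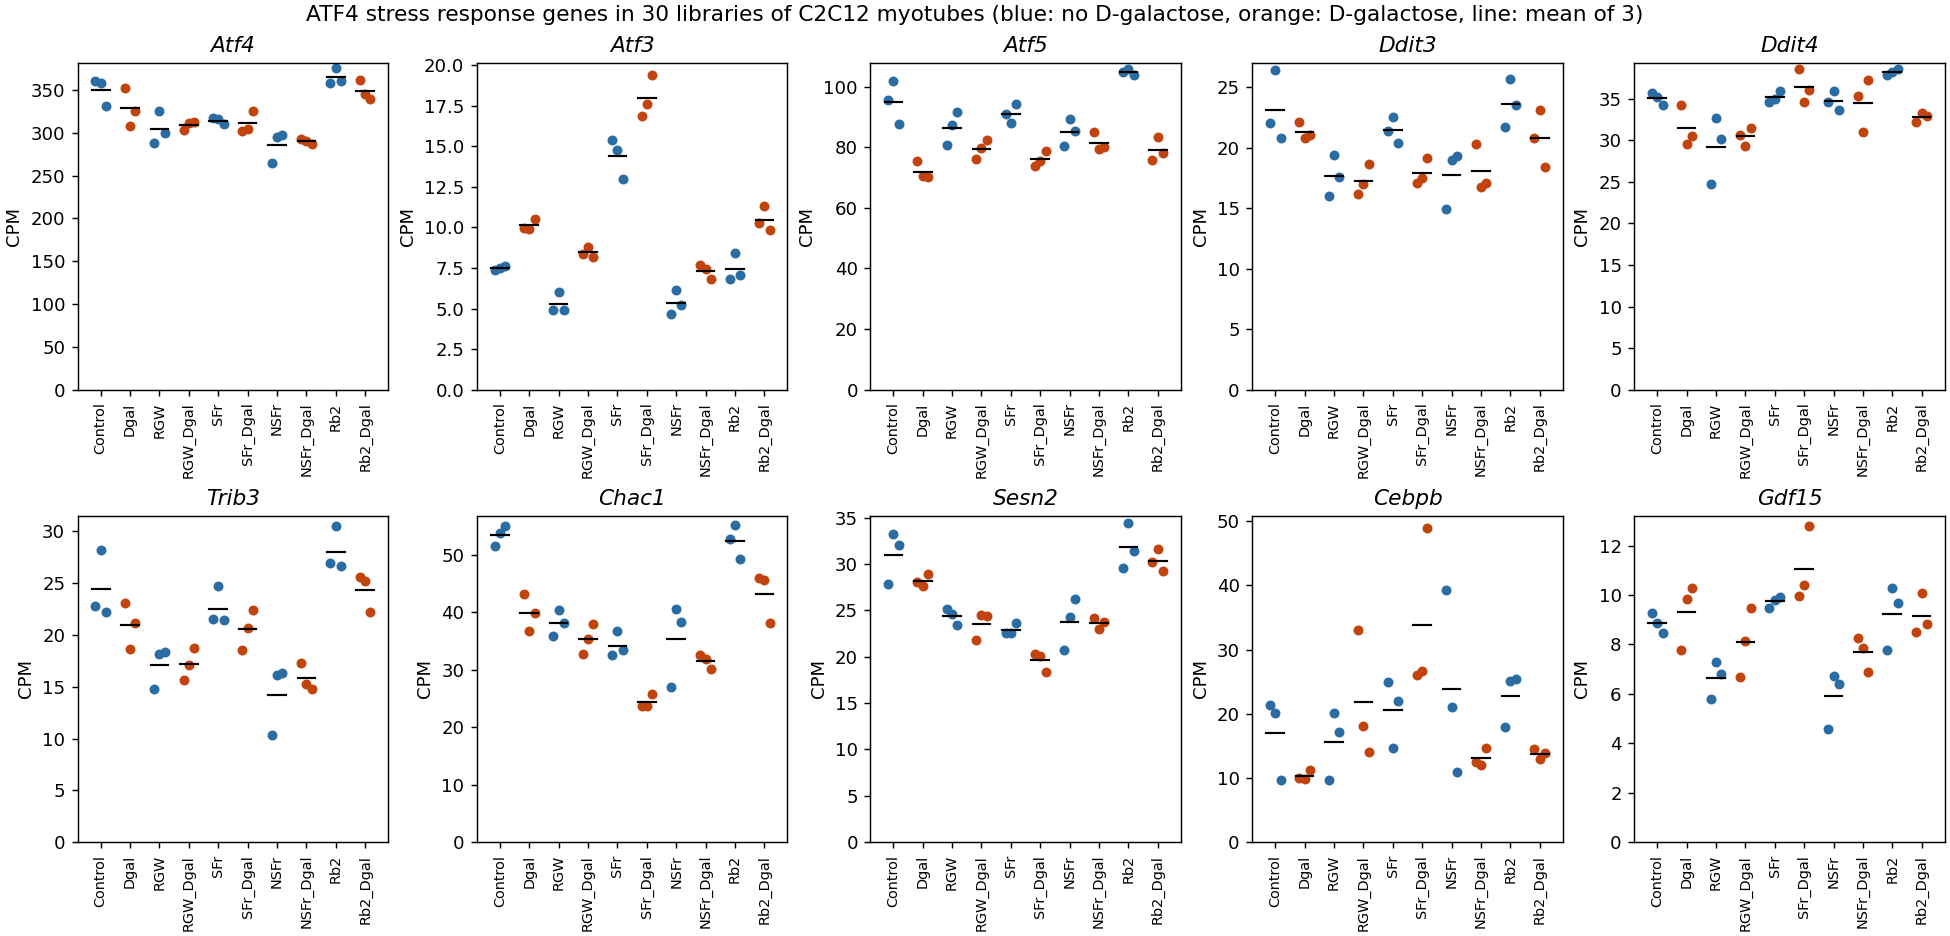
Level of each of the 10 genes in CPM (y axis, from 0, linear) in every library, by group (x axis, 3 libraries each); points are libraries, blue without and orange with D-galactose, and the black line is the mean of 3. Atf3 is highest in the 6 libraries with the saponin fraction, Chac1 is highest in Control and Rb2, and the Cebpb points spread widely within groups.

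The water extract alone lowered 7 of the 10 genes and raised none, in a comparison in which 3.21% of all genes were called (1.17% lower and 2.04% higher). The median log2 fold change of the 10 genes was -0.36, beside -0.004 over all genes. Atf3 showed the clearest separation among the factors: 4.89, 6.04 and 4.91 CPM with the extract, all below the lowest Control library (-0.50 ± 0.11, adjusted p from edgeR = 0.00562). Chac1 measured 35.8, 40.3 and 38.2 CPM, all under the Control range of 51.5 to 54.9 CPM (-0.48 ± 0.10, adjusted p = 0.00652). Sesn2, a leucine sensor and antioxidant protein that restrains mTORC1, measured 25.1, 24.6 and 23.4 CPM against 27.8 to 33.2 CPM (-0.34 ± 0.069, adjusted p = 0.00306). These 3 falls were called in each of the 11 alternative analyses. Atf4 fell by 13% (adjusted p = 0.0104). Ddit3 fell by 23.3% and Ddit4 fell by 16.3%. Trib3, the pseudokinase that binds AKT and ATF4, fell by 29.5%. The calls of Atf4, Ddit3, Ddit4 and Trib3 were lost without Control library 1 or 2, without RGW library 1 or 3, and in a fit of these 2 groups alone; that of Trib3 was also lost without RGW library 2 or without the low-count filter. Gdf15 (5.78 to 7.29 CPM against 8.47 to 9.26 CPM) did not overlap Control but missed the threshold (adjusted p = 0.109). Atf5 and Cebpb overlapped Control. The mitochondrial share, 1.25% to 1.33%, was above every Control library here, and its part in the falls was not tested.

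The non-saponin fraction alone lowered 8 of the 10 genes, with Ddit4 and Cebpb the exceptions, while 8.08% of all genes were called (3.51% lower and 4.56% higher). The median log2 fold change of the 10 genes was -0.38, beside -0.005 over all genes. Trib3 fell by 41.6%, the largest called fall, from 22.8, 28.2 and 22.2 CPM in Control to 10.3, 16.1 and 16.3 CPM (adjusted p from edgeR = 0.00111). Chac1 went to 27.0, 40.5 and 38.3 CPM (-0.59 ± 0.10, adjusted p from edgeR = 0.000707). Both groups were clear of Control, but NSFr library 1 stood well below the other two for both genes. Gdf15, the stress cytokine, measured 4.56, 6.73 and 6.40 CPM against 8.47 to 9.26 CPM in Control (-0.59 ± 0.14, adjusted p from edgeR = 0.0101). NSFr library 1 was the lowest for Gdf15 as well, and the call was lost without it or without Control library 1. Atf4 fell by 18.4% (-0.29 ± 0.047, adjusted p = 0.00016). Sesn2 fell by 23.3%, Atf3 fell by 28.5% and Ddit3 fell by 23%. Atf5 fell by 10.6%, although its libraries overlapped those of Control. Atf4, Atf3 and Sesn2 were called in each of the 11 alternatives. The Ddit3 call was lost without Control library 2 or NSFr library 1. That of Atf5 was lost without Control library 1 or 2 or NSFr library 1 or 3 or without the low-count filter, and those of Trib3, Chac1, Ddit3 and Atf5 in a fit of these groups alone. The mitochondrial share was 1.15% to 1.23%, above every Control library; its part was not tested.

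The saponin fraction alone raised Atf3 and lowered Chac1, Sesn2 and Atf4, in a comparison in which 43.1% of all genes were called. A count of 4 of 10 stood near that share. Atf3 measured 15.4, 14.8 and 13 CPM, 1.92-fold the Control level with no overlap (0.94 ± 0.091, adjusted p from edgeR = 1.5e-10). Chac1 measured 32.5, 36.7 and 33.4 CPM and fell by 36% (-0.64 ± 0.10, adjusted p = 1.09e-05). Sesn2 measured 22.5, 22.5 and 23.6 CPM (-0.43 ± 0.069, adjusted p = 3.46e-06). Atf3 thus moved in the opposite direction to both Chac1 and Sesn2 here. D-galactose alone was compared with the same Control libraries. Atf4 fell by 10.2% to 314 ± 3.96 CPM (adjusted p = 0.00695), a call that ended without Control library 1 (adjusted p = 0.0502). Ddit3, Trib3, Ddit4, Atf5 and Cebpb overlapped Control. Gdf15 stood just above Control in all 3 libraries (9.48 to 9.93 CPM) without being called. The summed myotube markers were also lower in these libraries, and 8 of the 9 fell. Cd68 was at 3.35 ± 0.142 CPM against 0.74 ± 0.278 CPM in Control, with Ptprc near 0 throughout, and the mean mitochondrial share was 1.22%. The part of these in the changes of the 10 genes was not tested.

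Rb2 alone moved none of the 10 genes by edgeR, with 1.53% of all genes called. One of the 10, Atf5, had an unadjusted p under 0.05, and DESeq2 called 0. Atf5 was at 105, 106 and 104 CPM, above every Control library (0.14 ± 0.050, adjusted p = 0.172). Ddit4 was likewise above Control in all 3 libraries (37.9 to 38.6 CPM, against 34.3 to 35.7 CPM; adjusted p = 0.463). The remaining genes overlapped Control, with log2 differences from -0.03 ± 0.096 for Chac1 to 0.40 ± 0.40 for Cebpb. A missed threshold does not show that the levels were alike, least of all for Cebpb, whose error was as large as its difference.

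**Figure D2:**
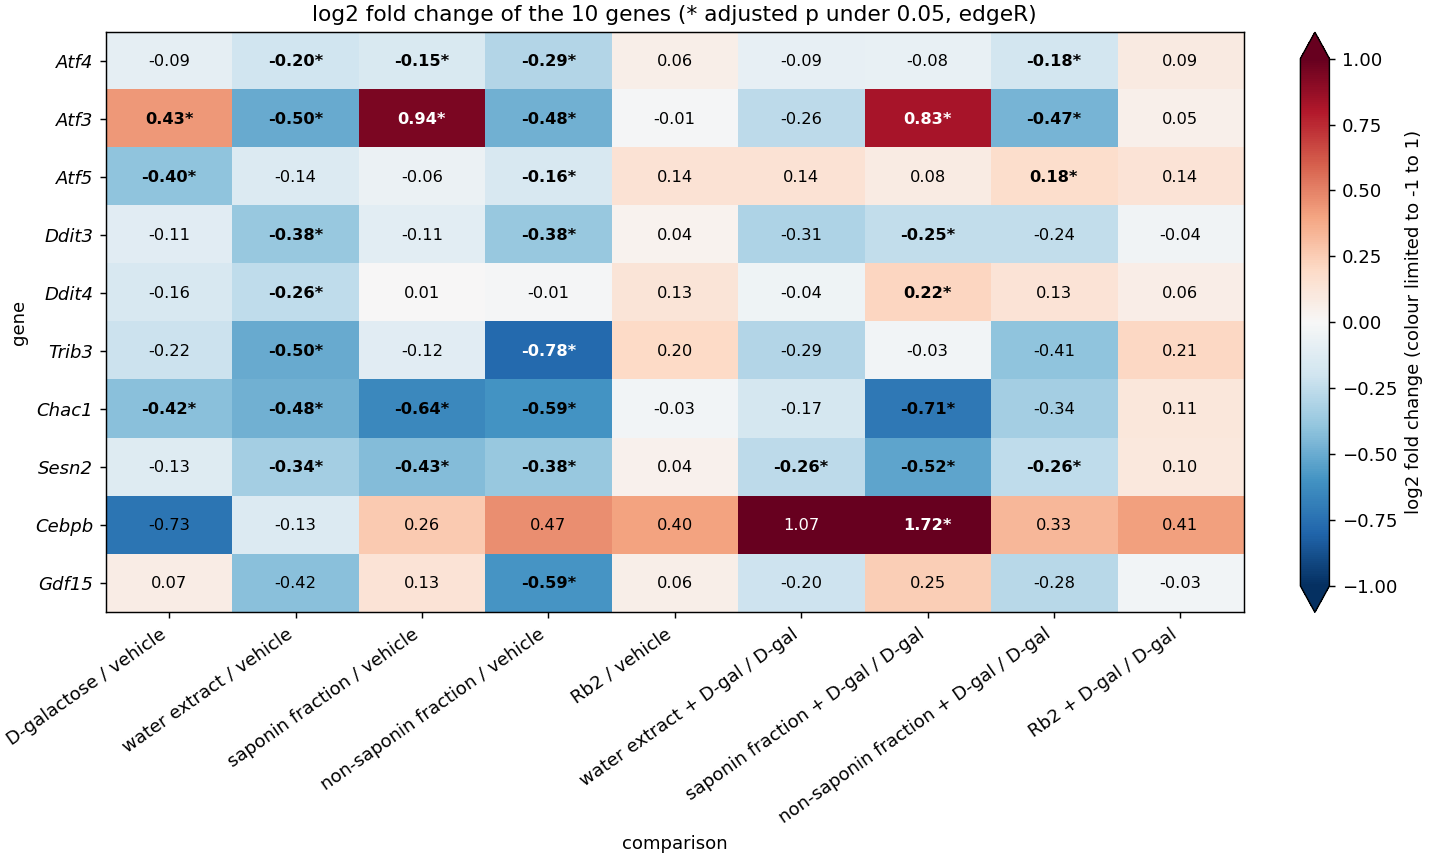
log2 fold change of each gene (rows) in the 9 comparisons with vehicle or with D-galactose (columns); colour runs from blue (lower) to red (higher) and is limited to -1 to 1, and a star marks an adjusted p under 0.05. The water extract and the non-saponin fraction have stars in 7 and 8 rows, all negative, the saponin fraction has a positive star for Atf3, and the Rb2 columns have none.

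With D-galactose present in both groups, the non-saponin fraction lowered Atf4, Atf3 and Sesn2 and raised Atf5, while 6.33% of all genes were called. Atf3 measured 7.69, 7.46 and 6.82 CPM in NSFr_Dgal against 9.96, 9.91 and 10.5 CPM in Dgal (-0.47 ± 0.097, adjusted p from edgeR = 0.00303). The NSFr_Dgal libraries thus spanned the Control range of 7.38 to 7.65 CPM. Atf5, which D-galactose had lowered, measured 84.9, 79.4 and 80.1 CPM against 70.1 to 75.4 CPM (0.18 ± 0.052, adjusted p from edgeR = 0.0325). Atf4 fell by 11.8% (adjusted p = 0.0165) and Sesn2 by 16.2% (adjusted p = 0.0241). Only the Atf3 call held in each of the 11 alternatives. That of Sesn2 was lost without any 1 of the 6 libraries, and that of Atf5 without any 1 of them but Dgal library 1. That of Atf4 was lost without Dgal library 1 or NSFr_Dgal library 2 or 3. In a fit of these 2 groups alone 8 members were called, beside 8.68% of all genes in that fit. Chac1, Trib3 and Ddit3 were below Dgal in all 3 libraries without being called (adjusted p = 0.0525, 0.0796 and 0.157).

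The water extract with D-galactose differed from D-galactose alone in Sesn2 only, with 5.06% of all genes called. Sesn2 measured 21.8, 24.5 and 24.4 CPM against 28.1, 27.6 and 28.9 CPM (-0.26 ± 0.070, adjusted p from edgeR = 0.0261). The groups did not overlap, but the call was lost without Dgal library 1 or 3 or RGW_Dgal library 1. Atf3 (8.39, 8.82 and 8.17 CPM) and Ddit3 (16.2, 17 and 18.6 CPM) were below every Dgal library and missed the threshold (adjusted p = 0.12 and 0.0834). Atf5 and Cebpb were above every Dgal library, also short of it (adjusted p = 0.117 and 0.193).

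The saponin fraction with D-galactose differed from D-galactose alone in 6 of the 10 genes, 3 higher and 3 lower, in a comparison with 41.3% of all genes called. Atf3 reached 16.9, 17.6 and 19.4 CPM, the highest of any group (0.83 ± 0.085, adjusted p from edgeR = 7.27e-10). Cebpb, a partner of ATF4 on DNA, measured 26.1, 26.6 and 48.9 CPM against 10.0, 9.77 and 11.3 CPM (1.72 ± 0.42, adjusted p from edgeR = 0.00229). It was still called without the high library, SFr_Dgal library 3 (1.35, adjusted p = 0.0233). Ddit4 was 16.2% higher (adjusted p = 0.0102). Chac1 measured 23.6, 23.6 and 25.7 CPM, the lowest of any group, and fell by 38.9% (-0.71 ± 0.11, adjusted p from edgeR = 7.89e-06). Sesn2 (20.3, 20.1 and 18.4 CPM) was likewise at its lowest here and fell by 30.5% (adjusted p = 2.58e-07). Ddit3 fell by 15.9% (adjusted p = 0.0487). The Ddit3 call was lost without SFr_Dgal library 1 or 2 or any 1 of the Dgal libraries, and without the low-count filter, and that of Ddit4 without Dgal library 2 or 3 or SFr_Dgal library 1. Of the myotube markers, 6 of 9 were lower in this comparison, and Cd68 was at 5.61 ± 0.127 CPM against 1.85 ± 0.261 CPM; their part was not tested.

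Rb2 with D-galactose differed from D-galactose in none of the 10 genes by edgeR, with 2.26% of all genes called; 1 had an unadjusted p under 0.05, and DESeq2 called 0. That gene was again Atf5, at 75.7, 83.5 and 78.2 CPM against 70.1 to 75.4 CPM (0.14 ± 0.052, adjusted p = 0.213). In a fit of these groups alone Cebpb was called (13 to 14.5 CPM against 9.77 to 11.3 CPM; log2 fold change 0.41, adjusted p from edgeR = 0.00274).

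Read the other way, each preparation with D-galactose was compared with the same preparation alone. Atf3 rose with D-galactose in every background. After the water extract it went from 5.28 ± 0.656 to 8.46 ± 0.330 CPM (0.68 ± 0.11, adjusted p from edgeR = 2.2e-05), after the non-saponin fraction from 5.35 ± 0.766 to 7.32 ± 0.453 CPM (0.45 ± 0.11), after Rb2 from 7.43 ± 0.882 to 10.5 ± 0.776 CPM (0.50 ± 0.095), and after the saponin fraction from 14.4 ± 1.28 to 18 ± 1.32 CPM (0.32 ± 0.079, adjusted p = 0.0033). These comparisons do not share libraries with each other, and in each the groups did not overlap. Cd68 was higher with D-galactose in the same backgrounds (means of 1.7 CPM against 0.809 CPM after the water extract, for example), and its part was not tested. Atf3 was the only member called after the water extract (15.2% of all genes called) and after the non-saponin fraction (12.7% of all genes called).

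After the saponin fraction, Atf5 fell by 16.6%, Chac1 fell by 28.7% and Sesn2 fell by 14.4% with D-galactose, with 19% of all genes called. The Sesn2 call (adjusted p = 0.0252) was lost without SFr library 3 or SFr_Dgal library 3. After Rb2, Atf5 fell by 24.6%, from 105 ± 1.13 to 79.1 ± 3.99 CPM (adjusted p from edgeR = 3.65e-07), with 21% of all genes called. Ddit4 fell by 14.1% and Chac1 fell by 17.7% in the same comparison. The call of Chac1 (adjusted p = 0.0448) was lost without any 1 of the Rb2 libraries or without Rb2_Dgal library 2 or 3 or the low-count filter, and that of Ddit4 without Rb2 library 3 or Rb2_Dgal library 1. Atf5 was at 86.5 ± 5.39 CPM after the water extract and 79.3 ± 3.18 CPM with D-galactose added, and at 85 ± 4.51 and 81.4 ± 2.99 CPM for the non-saponin fraction, with overlapping groups.

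Whether the D-galactose effect itself differed from that after vehicle was tested as an interaction. By edgeR none of the 10 genes passed after any of the 4 preparations: 0% of all genes were called after the water extract, 0.583% after the saponin fraction, 0.041% after the non-saponin fraction and 0% after Rb2. The counts of members with an unadjusted p under 0.05 were 3, 2, 1 and 0 in that order, and DESeq2 called 0, 0, 1 and 0. The gene that DESeq2 called was Atf5 after the non-saponin fraction, where the effect of D-galactose was smaller by 0.34 ± 0.072 on the log2 scale (adjusted p from edgeR = 0.0589). It was also called without the low-count filter and without Control library 3, Dgal library 1 or NSFr library 2. After the water extract the same difference was 0.28 ± 0.072 (adjusted p = 0.183).

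**Figure D3:**
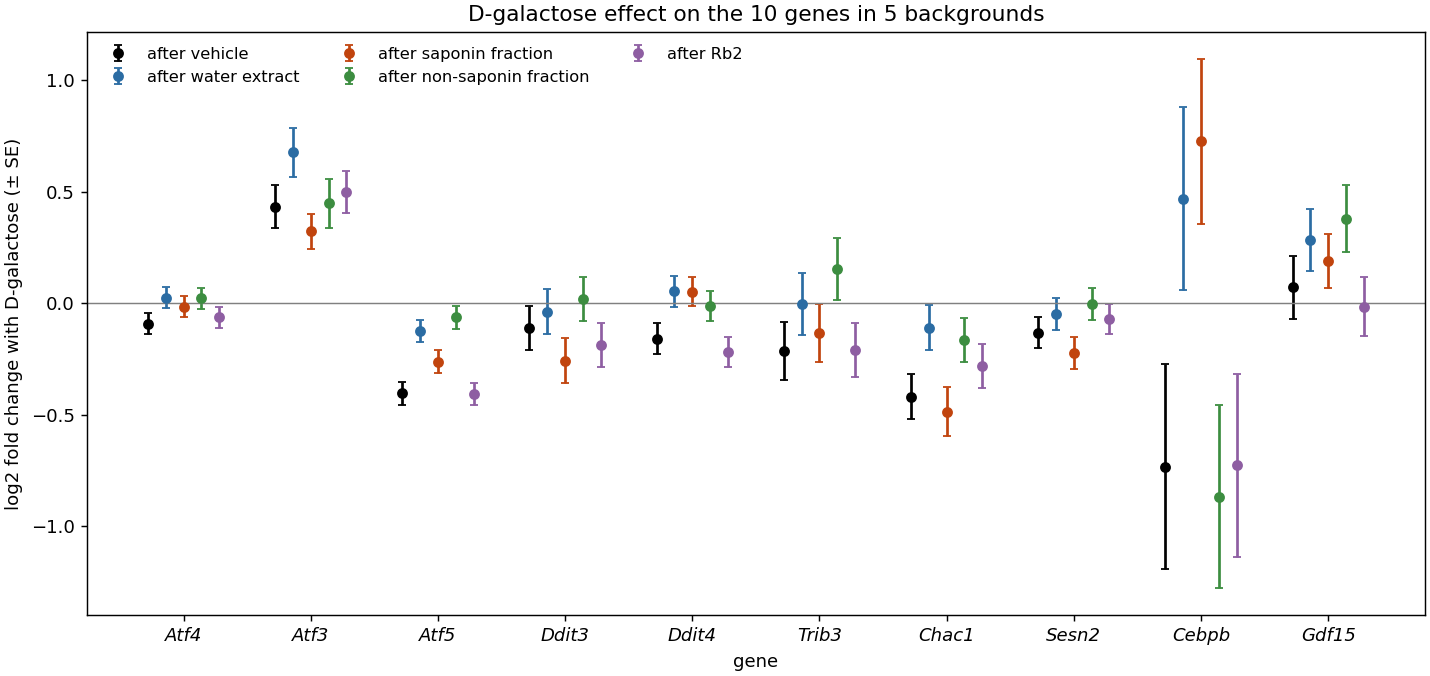
Effect of D-galactose on each gene as log2 fold change (y axis, points) with its standard error (bars), after vehicle and after each of the 4 preparations (colours). The 5 Atf3 points lie between 0.32 and 0.68, the Atf5 points run from -0.41 after Rb2 to -0.06 after the non-saponin fraction, and the Cebpb bars are the widest.

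Set against each other, the saponin fraction gave higher levels than the non-saponin fraction of 5 of the 10 genes and lower levels of none, with 40.4% of all genes called. Atf3 was 2.68-fold higher (1.42 ± 0.096, adjusted p from edgeR = 1.93e-14), Gdf15 1.65-fold (0.72 ± 0.14, adjusted p = 0.000109) and Trib3 1.58-fold (0.66 ± 0.14, adjusted p = 0.000382), all with no overlap. Ddit3 (1.21-fold, adjusted p = 0.0311) and Atf4 (1.10-fold, adjusted p = 0.0172) followed; both calls were lost without NSFr library 1, and that of Ddit3 also without SFr library 1 or 2. Chac1 and Sesn2, which both fractions had lowered against Control, overlapped between them, at 34.2 ± 2.26 and 35.3 ± 7.27 CPM for Chac1. The direction of that Chac1 difference (-0.05 ± 0.10) turned without NSFr library 2 or 3.

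With D-galactose present, 4 of the 10 genes were higher with the saponin than with the non-saponin fraction and 2 were lower, with 41% of all genes called. The higher ones were Atf3 (2.45-fold), Cebpb (2.61-fold), Gdf15 (1.44-fold) and Trib3 (1.3-fold), while Chac1 fell by 22.7% and Sesn2 fell by 17%. Gdf15 measured 9.95, 10.4 and 12.8 CPM against 8.28, 7.87 and 6.90 CPM (0.53 ± 0.13, adjusted p from edgeR = 0.00152). The Cebpb call was lost without SFr_Dgal library 3 (1.01, adjusted p = 0.0712). That of Trib3 (adjusted p = 0.0295) was lost without SFr_Dgal library 2 or 3 or NSFr_Dgal library 2 or 3.

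Ranked by group mean, Atf3 ran from SFr_Dgal (18 CPM) and SFr (14.4 CPM) through Rb2_Dgal and Dgal (10.5 and 10.1 CPM), RGW_Dgal (8.46 CPM), and Control, Rb2 and NSFr_Dgal (7.51, 7.43 and 7.32 CPM) to NSFr and RGW (5.35 and 5.28 CPM). SFr_Dgal, SFr and Rb2_Dgal did not overlap one another, nor did Dgal and RGW_Dgal, RGW_Dgal and Control, or NSFr_Dgal and NSFr; the other neighbours in this order overlapped. For Chac1, Control and Rb2 were highest (53.4 and 52.4 CPM) and SFr_Dgal lowest (24.3 CPM), both set off without overlap. In between, from Rb2_Dgal at 43.2 CPM to NSFr_Dgal at 31.5 CPM, each group overlapped its neighbour. Sesn2 ran from Rb2 (31.8 CPM) and Control (31.0 CPM) down to SFr_Dgal (19.6 CPM). Atf4 ran from Rb2 (365 CPM) to NSFr (286 CPM), with every group overlapping the next. Rb2 was also the highest group for Atf5, Ddit3, Ddit4 and Trib3.

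Cebpb stood apart from the other members by its spread within groups. Its SD within groups was 0.50 on the log2 CPM scale, larger than that of 98.4% of the tested genes, while the other 9 lay between 0.063 for Atf4 and 0.19 for Gdf15. The Control libraries had 21.3, 20.2 and 9.72 CPM, those of NSFr 39.3, 21.1 and 11 CPM and those of RGW_Dgal 33.1, 18.1 and 14.1 CPM. The Dgal, NSFr_Dgal and Rb2_Dgal groups, in contrast, were tight, with SDs of 0.809, 1.38 and 0.731 CPM. The expected count of Cebpb was not a whole number in 25 of the 30 libraries, within a tolerance of 1e-06, as RSEM gives where it divides reads between loci. Its exon shares 312 bases with Tmem189 on the opposite strand, a gene not analysed here. Ddit3 was not whole in 21 libraries and shares 68 exon bases with Mars on the opposite strand and 105 with a second gene model of the same name. Atf5 was not whole in 6 and shares 82 with Il4i1 and with Nup62. The strand setting of the counting is not given in the sources used here, so levels of these 3 genes are less certain than those of the other 7, whose counts were whole in every library.

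Libraries of the same group that were high for one member tended to be high for others. Over the 30 libraries, after removing the mean of each group, Pearson's r of log2 CPM was 0.88 between Trib3 and Chac1, 0.88 between Ddit3 and Trib3 and 0.80 between Atf4 and Trib3. The median over the 45 pairs was 0.46, and 21 pairs exceeded 0.5. The lowest values were for Cebpb, with r = -0.59 to Sesn2 and -0.42 to Chac1. Atf3 and Chac1 went together within groups (r = 0.63) but not across the 10 group means (r = -0.44). Chac1 and Sesn2 had r = 0.95 across the group means. These values describe libraries that share depth, composition and handling, and carry no test.

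The genes whose log2 CPM ran most like each member were sought over the 30 libraries. For Chac1 they were Bcat1 (r = 0.93), an aminotransferase of branched-chain amino acids, the leucine transporter Slc7a5 (0.91) and Prss23 (0.90). For Atf5 they were the serine synthesis enzyme Psat1 (0.90), Cdr2l (0.89) and the mitochondrial enzyme Pck2 (0.88). For Gdf15 they were Eif4ebp1 (0.83), a translation repressor, Gadd45a (0.83) and Pparg (0.80). For Atf3 they were Dusp10 (0.95), a MAP kinase phosphatase, Fez1 (0.94) and Adck1 (0.93). Hax1 was among the first 3 for Atf4 (0.83), Ddit3 (0.78) and Trib3 (0.84). For Atf4 the closest was Phf10 (0.89), for Trib3 Ifrd1 (0.85), for Sesn2 Glce (0.89), for Cebpb Arf6 (0.88) and for Ddit4 Tbca (0.74). Only genes with a mean of at least 5 CPM were searched, and the 30 points share groups and libraries. The members themselves were left out of the search, so another member can be closer than the genes named here.

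Enzymes of amino acid synthesis are a main class of ATF4 targets. The counts of this and the following lists stand beside the shares of all genes called, which were 25.1% with D-galactose, 3.21% with the water extract, 43.1% with the saponin fraction, 8.08% with the non-saponin fraction and 1.53% with Rb2. Of 13 tested, 11 fell with D-galactose, 6 with the water extract, 11 with the saponin fraction and 9 with the non-saponin fraction, and none rose. These comparisons, and those with vehicle for the following lists, share the same Control libraries and are not independent of each other. The D-galactose falls included Aldh1l2 (log2 fold change -0.79), Pck2 (-0.72), Asns, the asparagine synthetase (-0.51), and Psat1 (-0.51). The saponin fraction lowered Aldh1l2 by 0.58 on the log2 scale, and the non-saponin fraction had Pck2 at -0.44 and Asns at -0.37. The count after the water extract was 2 in a fit of its 2 groups alone or without Control library 3, and 0 without Control library 2, RGW library 1 or RGW library 3. Rb2 raised 1 of the 13, Gpt2 (0.18), a call lost without Control library 1 or 3 or Rb2 library 2 and in a fit of the groups alone. The medians of the list were -0.36 with D-galactose, -0.15, -0.30 and -0.27 with the water extract, the saponin and the non-saponin fraction, while those of all genes lay within 0.005 of 0.

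From this list 3 enzymes, Asns, Psat1 and Phgdh, were among the 5 genes whose D-galactose effect after the non-saponin fraction differed from that after vehicle. Asns fell from 94.5 ± 5.72 to 66.2 ± 3.36 CPM after vehicle and stood at 73.3 ± 8.06 and 70 ± 3.18 CPM without and with D-galactose after the non-saponin fraction. The difference of the effects was 0.45 on the log2 scale (adjusted p from edgeR = 0.0228). For Psat1 it was 0.38 (adjusted p = 0.0147), and for Phgdh, which starts serine synthesis, 0.40 (adjusted p = 0.0228). The calls of all 3 were lost without Control library 2 or without Dgal library 2. Those of Asns and Phgdh were also lost without NSFr_Dgal library 2 or 3, that of Asns in a fit of these groups alone, and that of Phgdh without NSFr library 1 or NSFr_Dgal library 1. Against D-galactose alone, Phgdh was the list's single call with the water extract (0.29 higher) and with the non-saponin fraction (0.40 higher). Of all genes, 5.06% and 6.33% were called in these comparisons. The count with the non-saponin fraction was 2 with DESeq2, without the low-count filter or without Dgal library 1, and 3 in a fit of the 2 groups alone. With the saponin fraction 8 of the 13 enzymes were called (7 to 10 over the alternatives), beside 41.3% of all genes.

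Amino acid transporters, 8 tested, had 3 lower calls with D-galactose, among them Slc38a2 (-0.40) and Slc7a5 (-0.26). With the non-saponin fraction 5 were lower, among them Slc7a1 (-0.28) and Slc7a5 (-0.26), and with the water extract 1. The Slc7a1 call was lost without Control library 2 or NSFr library 3. The count of 1 went to 0 without Control library 2 or RGW library 1 or 3, without the low-count filter and in a fit of the groups alone. The count of 5 changed by over 1.5 times without Control library 2 or NSFr library 1 and in a fit of the groups alone. With the saponin fraction 2 were higher and 4 lower, Slc1a5 at 0.39 and Slc7a1 at -0.40. Of 11 other effectors of ATF4 or CHOP, D-galactose had 2 calls, higher and lower together (1 to 3 over the alternatives), beside 25.1% of all genes. The water extract lowered 2 of the 11, the hormone Fgf21 (-0.37) and Nupr1 (-0.36). The non-saponin fraction lowered 4, again with Fgf21 (-0.39) and Nupr1 (-0.36). The saponin fraction lowered Fgf21 by 1.31 on the log2 scale and Stc2 by 0.69 and raised the proapoptotic Bcl2l11 by 0.57, 3 genes higher and 3 lower in all. The water extract's Fgf21 call was lost without Control library 1 or 2 or RGW library 1 or 3 and in a fit of the groups alone. That of the non-saponin fraction was lost without Control library 2 or NSFr library 1.

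Kinases and translation factors of the integrated stress response were also measured as mRNA. Of 15 tested, 2 rose and 2 fell with D-galactose, 1 fell with the water extract and 2 fell with the non-saponin fraction, so that 4 of 15 with D-galactose stood near the share over all genes. Eif4ebp1 was lower with both the water extract and the non-saponin fraction (-0.33 each), and Ppp1r15a (GADD34), the eIF2 phosphatase subunit, with the latter (-0.15). All 3 of these calls were lost without Control library 1. That of Ppp1r15a was lost without any 1 of its 6 libraries and in a fit of the groups alone. The water extract's Eif4ebp1 call was also lost without Control library 2 or RGW library 1 and in a fit of the groups alone. The Eif4ebp1 call with the non-saponin fraction was also lost without NSFr library 1. The saponin fraction raised the GCN2 inhibitor Impact (0.56) and Eif2ak4, which encodes GCN2 (0.25), with 2 others lower, a smaller share than that of all genes. That count of 4 was 2 without Control library 2, Control library 3 or SFr library 3.

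Chaperones of the endoplasmic reticulum, answer mainly to ATF6 and XBP1. Of 13 tested, 12 fell with D-galactose, including Sdf2l1 (-0.59) and Manf (-0.34), and 11 with the saponin fraction, including Pdia6 (-0.35). With the water extract edgeR called 0, with 2 at an unadjusted p under 0.05 and 0 by DESeq2. Without Control library 3 the count was 1. With the non-saponin fraction 1 was called, Dnajb9 (-0.19), a call lost in a fit of the groups alone; the count was 2 with DESeq2 or without Control library 1. Some of the 10 genes also answer to p53, and among 13 other p53 targets 9 rose and 1 fell with D-galactose, among the higher Aen and Btg2 (0.41 each). Against vehicle, 9 of the 13 were called with the saponin fraction, 4 with the non-saponin fraction and 2 with the water extract. These counts take higher and lower calls together. The shares of all genes were 43.1%, 8.08% and 3.21%. Over the alternatives the count of 4 ran from 2 to 4 and that of 2 from 1 to 2. Against D-galactose alone (5.06% and 6.33% of all genes called), 8 of the 13 were lower with the water extract, among them Ccng1 (-0.39) and Polk (-0.37), and 8 with the non-saponin fraction, with Ccng1 at -0.27 and Polk at -0.31.

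Partners and paralogs of the members were counted in the same way with the saponin fraction. Of 17 leucine zipper partners, 8 were higher and 2 lower, beside 21.3% and 21.8% of all genes, with Fosl1 at 1.11, Cebpa at 0.78 and Fos at 0.66. The paralogs Trib1 (0.99) and Trib2 (0.67) rose, while Trib3 was at -0.12 ± 0.13 and overlapped Control; Ddit4l fell by 0.38, and Ddit4 was at 0.005 ± 0.067. Jdp2, a leucine zipper repressor related to ATF3, was lower with D-galactose (-0.44), the water extract (-0.28), the saponin fraction (-0.39) and the non-saponin fraction (-0.23). The 17 partners, Jdp2 included, had 2 calls with D-galactose, 1 with the water extract and 4 with the non-saponin fraction, higher and lower together. Over the alternatives these counts ran from 2 to 3, from 1 to 2 and from 1 to 5. Of 13 genes for tRNA synthetases and tRNA export linked to ATF4, only Xpot was in the table, and the others were not analysed here.

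**Figure D4:**
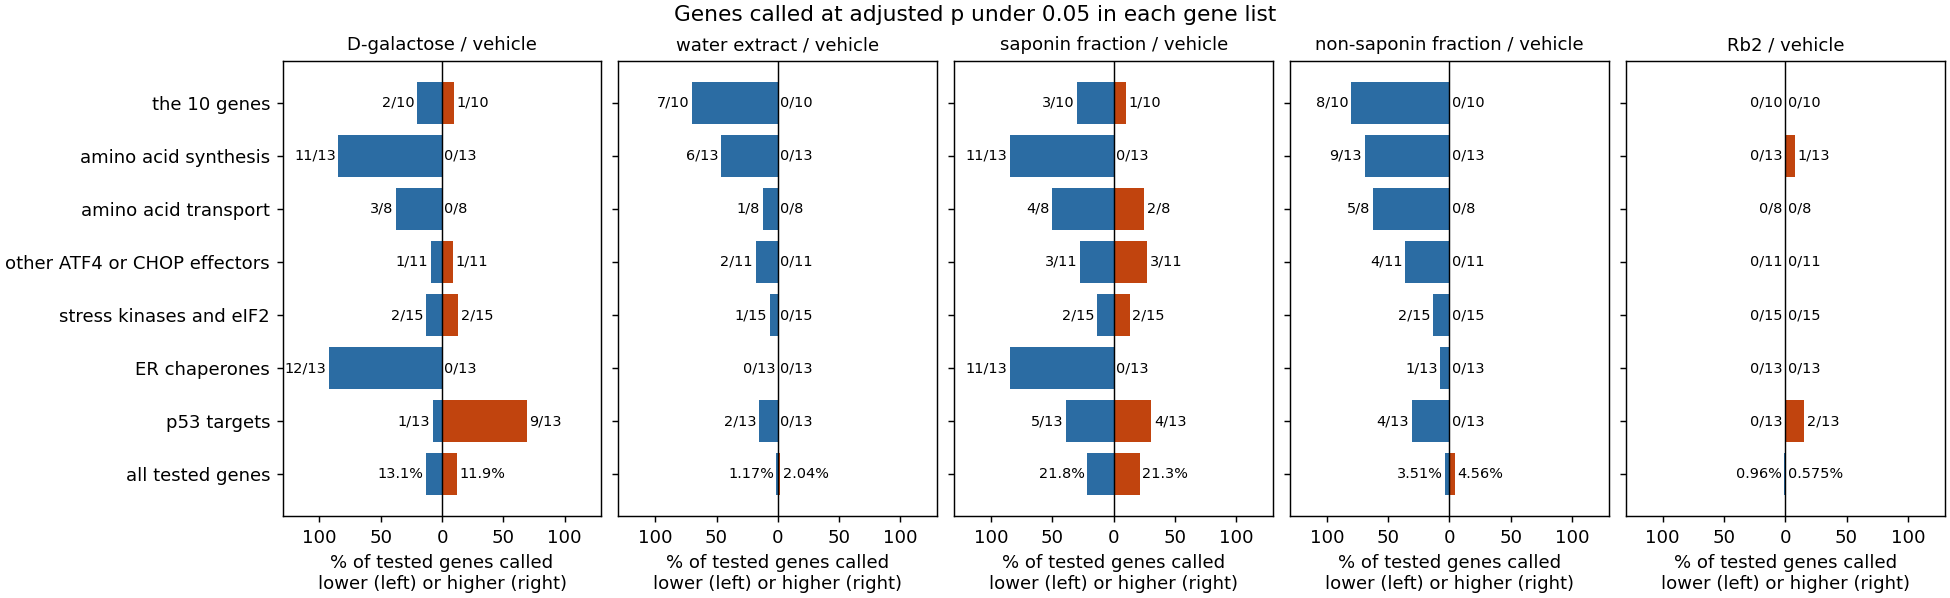
Share of tested genes called lower (blue, left) or higher (orange, right) at an adjusted p under 0.05 in each gene list (rows; counts of called over tested beside the bars), for D-galactose and the 4 preparations alone against vehicle (panels); the bottom row gives the share of all tested genes. The 10 genes reach 7 and 8 lower calls with the water extract and the non-saponin fraction, where the endoplasmic reticulum chaperones have 0 and 1.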

How the data were processed

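The deposited values are expected counts, which RSEM estimated for the authors and which were not normalized. The submitters' processing notes name RSEM 1.3.3, STAR 2.7.9a, Trim Galore 0.6.10 and FastQC 0.11.9 and the builds GRCm38 and mm10. The sources used here give neither annotation nor strand setting. Per the labels, poly(A) RNA went into directional paired-end libraries.

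Rounded counts were fitted in R 4.3.3 with edgeR 4.0.16 (quasi-likelihood F-test, robust, TMM, filterByExpr), with 1 model of the 10 groups across all 30 libraries. CPM use effective library sizes, except the marker sums and the highest values of Csf1r and Ptprc, which use raw library totals. A standard error is the size of the log2 fold change over the root of F. The common biological coefficient of variation was 4.25%. Replicate pairs differed by more than sampling noise (chi-square per degree of freedom 2.48 to 13.7), and none was merged. The alternatives were RLE scaling, no low-count filter, DESeq2 1.42.0, a replicate block, a fit restricted to the compared groups, and omission of single libraries. The fit was tested on simulated data.

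The members and gene lists were chosen with earlier results of these data known. All members are described. From every other list, at most 4 called genes with the largest changes are named per comparison, and any gene that moved against its list.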

Additional observations from a re-analysis of the deposited data

Results flagged for a closer look

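In 4 genes of the pathway lists the D-galactose effect after a preparation differed from that after vehicle by an interaction test in edgeR. After the non-saponin fraction the log2 difference was 0.45 for Asns, 0.38 for Psat1 and 0.40 for Phgdh, each a smaller fall than after vehicle for Asns and Psat1, and for Phgdh 121 ± 6.79 CPM without and 125 ± 1.2 CPM with D-galactose. After the saponin fraction it was 0.29 for Jdp2 (adjusted p = 0.0384), a call lost in 10 of 17 alternatives.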

How the results depend on the processing

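Of 54 called results for the 10 genes in 15 comparisons, 31 were called in every alternative; of 594 alternative values 513 kept direction and side of the threshold, 81 lost the call and 0 reversed. Among results not called, the Chac1 difference between the fractions (-0.05) ran from -0.21 to 0.071 with 1 library left out, turning to 0.071 without NSFr library 2 and 0.01 without NSFr library 3. The causes were not tested.

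In a fit of only the groups compared, the number of the 10 genes called was 3 for the water extract and 4 for the non-saponin fraction alone. It was 2, 8 and 1 for the water extract, the non-saponin fraction and Rb2 with D-galactose against D-galactose, and 2 for the non-saponin fraction with against without D-galactose. Of all genes, these fits called 0.774%, 4.31%, 2.93%, 8.68%, 3.1% and 15.9% in that order. Without the low-count filter, and with DESeq2, the interaction after the non-saponin fraction had 1 call each. With single libraries left out the number was 3 to 5 for D-galactose, 3 to 8 for the water extract, and 5 to 8 for the non-saponin fraction. Against D-galactose it was 0 to 1 for the water extract and 1 to 2 for the non-saponin fraction. D-galactose added to the water extract and to the non-saponin fraction gave 1 to 2 each, added to Rb2 2 to 3, and the interaction after the non-saponin fraction 0 to 1. RLE scaling kept every count of the 10 genes within 1.5 times.

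Replicate numbers did not pair the libraries by the correlation of same-numbered deviations (-0.18 to 0.12 for the water extract against vehicle, for example). With the replicate number as a block, the non-saponin fraction with against without D-galactose had 2 calls, and every other count of the 10 genes stayed within 1.5 times.

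Over all genes, calls changed by over 1.5 times as follows. With only the groups compared, 391 became 91 for the water extract, 984 became 508 for the non-saponin fraction, 187 became 106 for Rb2, and 617 became 348 for the water extract against D-galactose; for D-galactose added, 1855 became 1154 after the water extract and 2315 became 1466 after the saponin fraction. The lowest counts with 1 library left out were 196 (RGW 1), 592 (Control 2), 115 (Control 3) and 342 (Dgal 3) for the first 4 of these, 353 of 771 (Dgal 3) and 126 of 275 (Dgal 2) for the non-saponin fraction and Rb2 against D-galactose, and 1672 of 2562 (Rb2_Dgal 2) for D-galactose after Rb2. The interactions had 0 calls after the water extract against 21 by DESeq2, 3 with no low-count filter, 2 with the replicate block and 0 to 9 with 1 library left out, 71 after the saponin fraction against 13 with only its groups, 108 by DESeq2 and 37 to 140 with 1 library left out, and 5 after the non-saponin fraction against 16 by DESeq2, 9 with no low-count filter, 2 with only its groups and 0 to 12 with 1 library left out. For the pathway lists, alternatives added after seeing the data kept 546 of 596 gene values and 355 of 424 counts. The lowest expected count of any member in a library was 116, for Gdf15.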
